A study of Bos taurus with 138 samples.

Results

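Molecular chaperones were followed at the level of their mRNA through bovine oocyte maturation and preimplantation development. The set held the 91 genes, of 16706 in the expression table, whose symbols begin with DNAJA, DNAJB, DNAJC, HSP90 or PFDN, or with HSPA, HSPB, CCT or BAG and a digit, together with HSPD1, HSPE1, HSPH1 and TCP1. The rule and the grouping into subfamilies use symbols alone and no measured value. They comprised 14 HSP70 genes (HSPA genes and HSPH1), 3 HSP90 genes, 8 small heat shock protein (HSPB) genes, the J-domain genes (4 DNAJA, 12 DNAJB and 28 DNAJC), the 2 genes of the mitochondrial chaperonin, 10 genes of the cytosolic chaperonin TRiC, 5 prefoldin genes and 5 BAG genes.

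Chaperones bind proteins that are not yet folded or have lost their fold. HSP70 holds exposed hydrophobic stretches in a cycle driven by ATP, J-domain proteins (DNAJ) bring clients and trigger ATP hydrolysis, and BAG proteins and HSPH1 release the nucleotide so that the client can leave. HSP90 takes over late folding intermediates such as kinases and steroid receptors, small heat shock proteins hold unfolded proteins without ATP, and prefoldin hands newly made actin and tubulin to TRiC, which closes around them. HSPD1 and HSPE1 form the folding chamber of the mitochondrial matrix, and HSPA5 and HSP90B1 are the HSP70 and HSP90 of the endoplasmic reticulum. In mammalian embryos an HSP70 gene is among the first to be transcribed at embryonic genome activation (EGA), and in cattle the major wave of EGA falls at the 8-cell stage.

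The 6 stages compared were germinal vesicle (GV) oocytes, metaphase II (MII) oocytes matured in vitro, and in vitro produced embryos at the 2-cell, 8-cell, morula and blastocyst stages. At each stage 2 sucrose gradients, A and B, were each cut into 10 fractions that were sequenced separately, and 3 transcriptomes, A, B and C, were sequenced from pools of whole oocytes or embryos of the same batch. None of the groups had a genetic change or a treatment that set it apart from the others. All came from oocytes of slaughterhouse Bos taurus ovaries freed of their cumulus cells, the embryos were sired with frozen semen of a Holstein bull, and living oocytes and embryos were treated briefly with cycloheximide before collection so that ribosomes stayed on the mRNA. The fractionated samples also had cycloheximide in the lysis buffer and gradients, while the transcriptomes were not run on gradients. Each library therefore comes from a pool of oocytes or embryos, and the number of animals behind it is not stated. The study's methods and the series' design text give different numbers of oocytes or embryos per gradient. A blastocyst pool mixes inner cell mass and trophectoderm, so fewer cells of a type and less RNA per cell cannot be told apart.

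Polysome-occupied mRNA was taken as the summed counts of fractions F8 to F10 of a gradient (the polysome pool), and monosome-bound mRNA as those of F3 to F5. Levels are given in CPM, counts scaled to a common library total, with library sizes adjusted by the trimmed mean of M values (TMM). Each library was amplified on its own, so a CPM is a share of that library and the amount of RNA in a fraction or embryo is not kept. The paper describes transcription as silenced in GV oocytes. Poly(A) tail length was not measured, and its part in the levels captured before EGA was not tested. Levels are not compared between genes, because they are not per length. Fold changes are on the log2 scale, tested by edgeR's quasi-likelihood F test. Their standard errors (SE) were derived from that test, as the absolute log2 fold change over the square root of F. The p-values were Benjamini-Hochberg adjusted over all 14612 genes tested, or all 14873 for polysome against monosome pools. Between consecutive stages a member is said to have risen or fallen where the adjusted p was below 0.05 and the change exceeded 2-fold, and in the other comparisons where the adjusted p was below 0.05. Of the 91 members, 88 had enough counts to be tested. DNAJB7, DNAJC5B and HSPB9 had not.

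Fraction libraries held 1229382 to 17342859 counts, polysome pools 22543743 to 39380629 and transcriptomes 3269386 to 11812567, the blastocyst transcriptomes being the shallowest. Across genes, transcriptomes of a stage correlated at Pearson's r of 0.957 to 0.993, and the 2 polysome pools of a stage at 0.940 to 0.972, except at the 8-cell stage (0.822) and the morula (0.868). Of the members at 10 CPM or more, 19 of 57 lay over 2-fold apart between the 8-cell polysome pools and 25 of 57 between the morula pools, against 1 of 60 to 10 of 59 at the other stages. Of the members at that level, 8-cell transcriptome A lay over 2-fold from B in 12 of 71 and from C in 6 of 72. Transcriptomes B and C lay so far apart in 0 of 70. HSPA5 was among the members for which library A stood apart (1862 CPM against 579.8 and 676). The 10 oocyte markers summed to 20011 to 23464 CPM in GV transcriptomes and 42.9 to 186 in blastocyst ones. The 9 cumulus markers, mainly HAS2, summed to 37.8 to 47.4 CPM in GV and 284 to 370 in MII transcriptomes. Their sums were 107 to 119 at the 2-cell and 138 to 338 at the 8-cell stage. Later they were 8.08 to 14.2 in the morula and 30.3 to 34.6 in the blastocyst. The 7 trophectoderm markers summed to 5143 to 6064 CPM in blastocyst transcriptomes and 310 or less before.

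In the transcriptome, as among all genes, more members were called between the 2-cell and 8-cell stages than at any other step. From GV to MII 4 members rose, where 6.6% of all genes did, and 10 fell (10.4%). From MII to the 2-cell stage 6 rose (5.99%) and 6 fell (5.96%). From the 2-cell to the 8-cell stage 21 rose (26.5%) and 10 fell (23.3%), where 49.9% of all genes did either. From the 8-cell stage to the morula 6 rose (6.56%) and 7 fell (7.73%), and from the morula to the blastocyst 8 rose (10.1%) and 13 fell (11.4%). Among the 88 tested members a smaller share fell at EGA than among all genes, and the other shares were close to the background. Without 2-cell transcriptome A or C, the MII to 2-cell calls went from 12 to 7 or 6.

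In polysomes, as among all genes, more members were called at EGA and at the next step than at the other steps. From GV to MII 6 members rose (3.02% of all genes) and 6 fell (2.32%), and from MII to the 2-cell stage 5 rose (3.4%) and 7 fell (5.21%, or 8.62% in either direction). From the 2-cell to the 8-cell stage 17 rose (21.0%) and 19 fell (25.1%, or 46.1% in either direction). From the 8-cell stage to the morula 29 of the 88 rose (18.4%) and 8 fell (17.7%, or 36.1% in either direction). The median log2 fold change of that step was 0.58 over members and 0.00 over all genes. From the morula to the blastocyst 4 rose (5.75%) and 4 fell (8.06%). The counts of the small transitions rested on single gradients: the 12 GV to MII calls became 4 without GV gradient A, 5 without GV gradient B and 4 without MII gradient A. The 12 MII to 2-cell calls became 3 without MII gradient B, 3 without 2-cell gradient A and 2 without 2-cell gradient B, and the 8 morula to blastocyst calls 15 without morula gradient B and 3 without either blastocyst gradient.

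**Figure D1:**
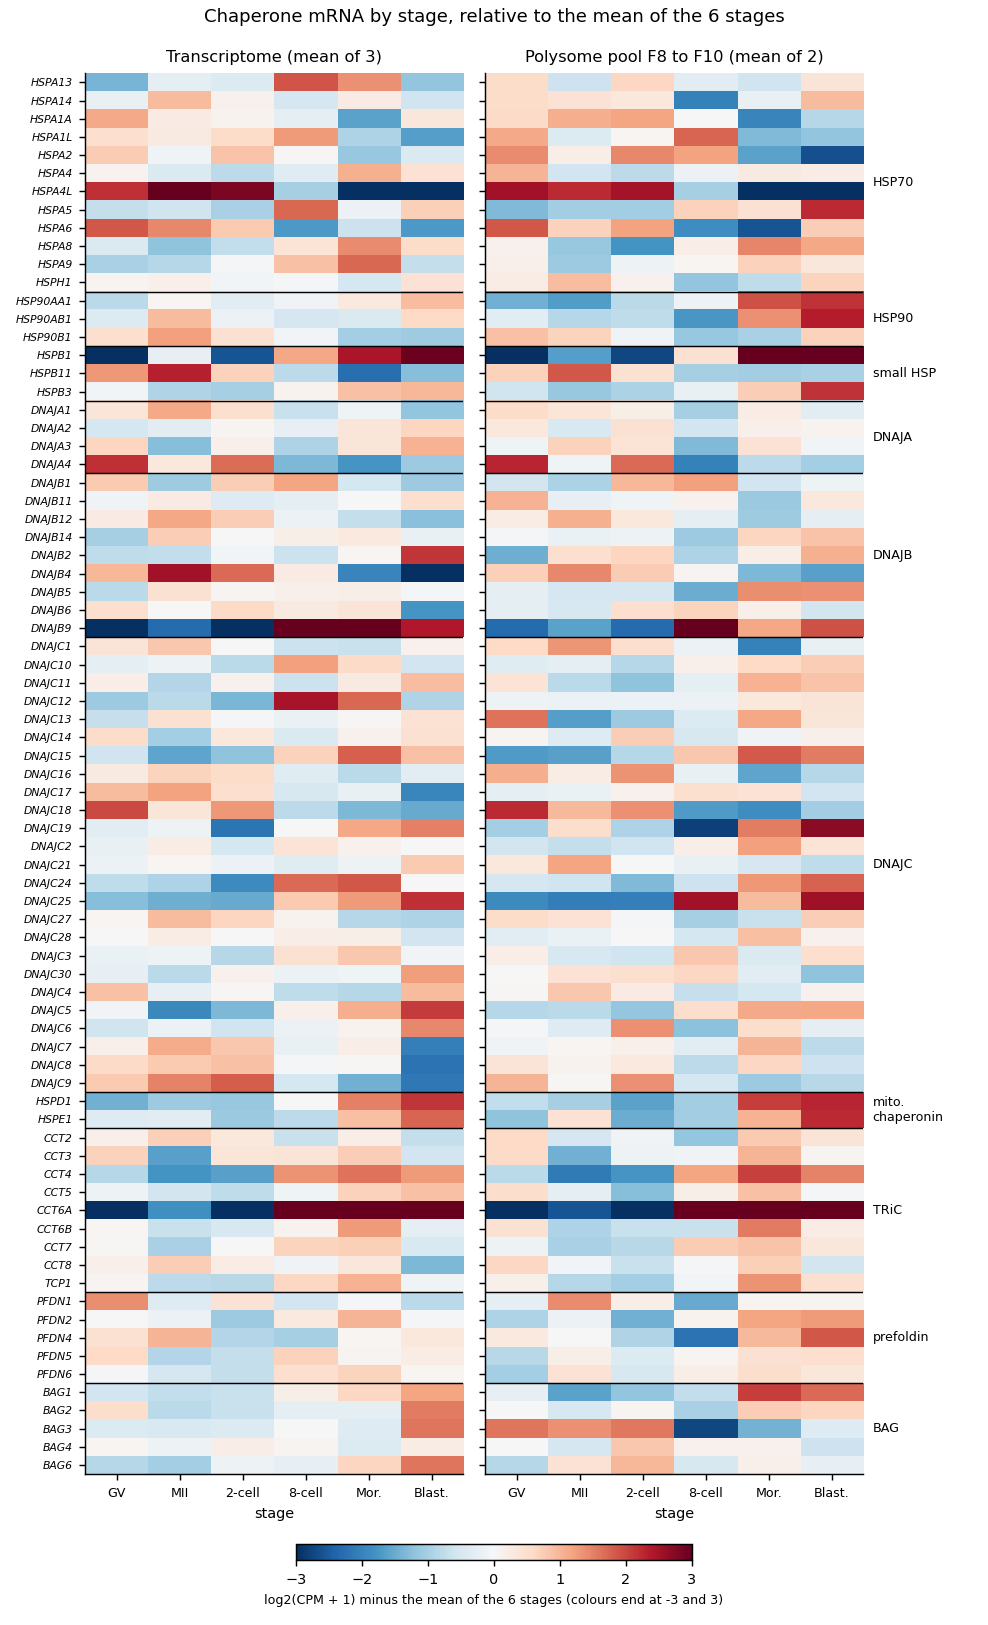
Heat map of the mean log2(CPM + 1) of 77 members in transcriptomes and polysome pools by stage, each row relative to its own mean over the 6 stages, with colours ending at -3 and 3 and the other 14 members left out for levels under 10 CPM at every stage. Rows grouped by subfamily show the late rise of the mitochondrial chaperonin and HSPB1 and lower levels of HSPA4L, DNAJA4 and DNAJC18 from the 8-cell stage on.

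As a share of all counts, members took 1.53% ± 0.0530 (SD, n = 3) of the GV transcriptome, 1.36% ± 0.0440 of the MII, 1.60% ± 0.117 of the 2-cell, 1.86% ± 0.265 of the 8-cell, 2.45% ± 0.0759 of the morula and 1.83% ± 0.0390 of the blastocyst transcriptome. In polysome pools the share was 0.932% ± 0.0909 (SD, n = 2) at GV, 0.612% ± 0.0803 at MII, 0.762% ± 0.0238 at the 2-cell stage, 0.835% ± 0.164 at the 8-cell stage, 1.28% ± 0.0729 in the morula and 1.19% ± 0.0354 in the blastocyst. At every stage the 3 transcriptome shares lay above both polysome shares. Of the 75 members at 10 CPM or more at some stage, 46 (61.3%) had their highest mean transcriptome level at the 8-cell stage or later, against 53.4% of all genes at that level. In polysomes 21 of 68 peaked in the morula, against 2011 of 10557 genes, and all 8 TRiC ring subunits were among them.

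TRiC is built of 8 different subunits, encoded by TCP1, CCT2, CCT3, CCT4, CCT5, CCT6A, CCT7 and CCT8, and their mRNAs took different courses. CCT6A, nearly absent in oocytes and 2-cell embryos, and CCT4 rose at EGA in both the transcriptome and polysomes. CCT3 fell at maturation and came back in the 2-cell embryo. No subunit fell at EGA in the transcriptome, and 4 of the 8 (TCP1, CCT3, CCT7 and CCT8) fell from the morula to the blastocyst, where 11.4% of all genes did.

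The CCT6A transcriptome level was 3.26, 0.205 and 1.22 CPM in the GV libraries, 8.13, 14.2 and 9.52 at MII, 0.380, 0.560 and 0.677 at the 2-cell, 427, 354 and 371 at the 8-cell stage, 741, 558 and 666 in the morula and 362, 456 and 511 in the blastocyst. The 8-cell and later libraries did not overlap any earlier one. Its log2 fold change from the 2-cell to the 8-cell stage was 9.46 ± 1.23 in the transcriptome (edgeR quasi-likelihood test, adjusted p = 9.35e-07) and 10.16 ± 1.58 in polysomes (adjusted p = 1.73e-05), where the pools went from 0.139 and 0.0615 CPM to 108 and 141. Its transcriptome rise from GV to MII, at levels of 14.2 CPM or less (2.71 ± 0.95), was lost in 5 of the 6 omissions of a GV or MII transcriptome (2.22 to 2.88), and its polysome change from MII to the 2-cell stage turned from -4.60 to 3.92 without MII gradient B.

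CCT4 stood at 93.8, 81.8 and 71.0 CPM in 2-cell and 566, 667 and 708 CPM in 8-cell transcriptomes, and at 40.4 and 26.7 CPM in 2-cell against 213 and 324 CPM in 8-cell polysome pools. The groups lay far apart in both kinds of library. The log2 fold changes were 2.98 ± 0.24 (adjusted p = 9.01e-10) and 3.0 ± 0.30 (adjusted p = 4.78e-08). TCP1, whose gene overlaps ACAT2 in the annotation, went from 194, 151 and 153 to 477, 477 and 417 CPM in the transcriptome, a log2 fold change of 1.46 ± 0.19 (adjusted p = 1.04e-06). In polysomes its rise came a stage later, from 177 and 231 CPM at the 8-cell stage to 470.4 and 626 in the morula (log2 fold change 1.43 ± 0.23, adjusted p = 7.18e-05). The polysome pools of the 2 stages did not overlap.

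CCT3 fell from 771, 788 and 723 CPM at GV to 133, 173 and 151 at MII and stood at 709.8, 623 and 510.1 CPM in the 2-cell transcriptomes. The MII libraries lay below all others for this gene. The log2 fold changes were -2.32 ± 0.23 (adjusted p = 8.77e-08) and then 2.01 ± 0.23 (adjusted p = 2.58e-06). Polysome pools went the same way, from 686 and 645 CPM at GV to 110.1 and 244 at MII, then 400.4 and 399 at the 2-cell stage, with a log2 fold change of -1.91 ± 0.28 (adjusted p = 3.07e-04) and then 1.18 ± 0.27 (adjusted p = 0.00864). The second polysome change was not called without MII gradient A (0.72). CCT8, by contrast, stood at 1428 ± 181 CPM (SD, n = 3) at GV and 2159 ± 225 at MII in the transcriptome, a change that did not pass the fold threshold.

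In polysomes CCT2, CCT4 and TCP1 also fell from GV to MII, by log2 fold changes of -1.05, -1.34 and -1.02. These 3 calls rested on single gradients: without MII gradient A they were -0.68, -1.18 and -0.98 and none was called. CCT2 was also lost without GV gradient A or B (-0.91 and -1.17), and TCP1 without GV gradient A (-0.85). At EGA, CCT5 and CCT7 rose in polysomes (log2 fold changes 1.57 ± 0.27 and 1.58 ± 0.27), and CCT2 fell (-1.01 ± 0.30). CCT5 was not called without 8-cell gradient B (0.93), and CCT2 was not called without 2-cell gradient A (-0.93) or 8-cell gradient A (-0.63). CCT2 rose in polysomes at the following step, from 75.7 and 139 to 392 and 408 CPM (log2 fold change 1.90 ± 0.31, adjusted p = 6.28e-05).

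From the morula to the blastocyst CCT8 fell from 1436, 1657 and 1828 to 475, 473 and 587 CPM in the transcriptome and from 406 and 539.8 to 212 and 176 CPM in polysomes. Neither pair of groups overlapped. The log2 fold changes were -1.68 ± 0.21 (adjusted p = 3.34e-06) and -1.28 ± 0.25 (adjusted p = 0.00198). CCT3, TCP1 and CCT7 fell in the transcriptome by log2 fold changes of -1.31, -1.17 and -1.18, whereas CCT4, CCT5, CCT6A and CCT2 were not called. Together the ring subunits took 0.439%, 0.341%, 0.441%, 0.509%, 0.677% and 0.332% of transcriptome counts from GV to blastocyst and 0.293%, 0.106%, 0.136%, 0.249%, 0.345% and 0.193% of polysome counts.

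**Figure D2:**
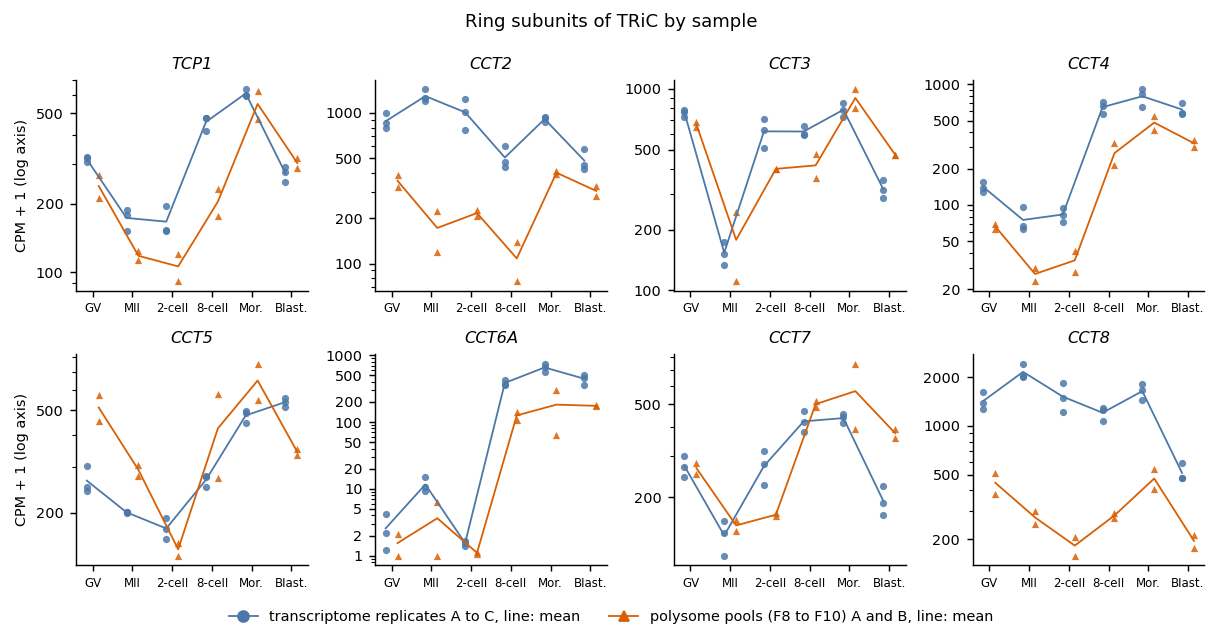
CPM + 1 of the 8 TRiC ring subunits by stage on a log axis, with every transcriptome and every polysome pool as a point and lines through the means. CCT6A and CCT4 step up at the 8-cell stage in both, CCT3 dips at MII, and the polysome level of CCT8 stays below its transcriptome level at all 6 stages.

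Within the gradients, most ring subunits lay lower in the heavy than in the light fractions at the MII and 2-cell stages and higher from the 8-cell stage on. In MII oocytes 7 of the 8 were lower in F8 to F10 than in F3 to F5 in both gradients, and in 2-cell embryos 7 of the 7 at 1 CPM or more were. In 8-cell embryos, morulae and blastocysts 7 of the 8 were higher in both, the exceptions being CCT3, CCT7 and CCT6A in turn. Of all genes, 36.9% and 35.4% were lower in both gradients at MII and the 2-cell stage, and 29.9%, 27.1% and 37.2% were higher in both at the 3 later stages. The median log2 ratio of heavy to light fractions over the ring subunits was -1.76 and -1.48 in MII gradients A and B, -1.25 and -0.92 at the 2-cell stage, 1.81 and 1.43 at the 8-cell stage, 1.22 and 1.62 in the morula and 0.97 and 0.76 in the blastocyst. In GV oocytes the 2 gradients gave 0.87 and 0.37, with 4 of 7 higher in both.

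TCP1, as an example, lay on both sides. In MII oocytes its mean CPM in F3 to F5 was 527 in gradient A and 496 in gradient B, and in F8 to F10 it was 98.8 and 99.8. In the morula the light fractions held 153 and 107 CPM and the heavy ones 340 and 514. For CCT8 at the 8-cell stage the light fractions held 39.9 and 44.4 CPM and the heavy ones 267 and 242, so that both gradients moved alike.

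Few of these differences passed the test of polysome against monosome pools. At MII 3 members were lower in polysomes (0.208% of all genes) and all were ring subunits: TCP1 (-2.31 ± 0.47, adjusted p = 0.0331), CCT3 (-2.28 ± 0.38, adjusted p = 0.0111) and CCT7 (-2.06 ± 0.42, adjusted p = 0.0331). With the gradient as a block, which pairs the heavy and light part of the same gradient, CCT3 was called (-2.37) and TCP1 (-2.31) and CCT7 (-2.04) were not, and without MII gradient A or B none was. At the 2-cell stage no member was called by the quasi-likelihood test (0.0%), while 7 had an unadjusted p below 0.05, DESeq2 called 3 and the likelihood ratio test 1. At the 8-cell stage 8 members were higher (4.59%) and 2 lower (4.85%). CCT8 was higher by 2.53 ± 0.38 (adjusted p = 0.00405), CCT4 by 1.96 ± 0.47 and CCT5 by 1.67 ± 0.41, beside HSPA8, HSPA4, HSPA5, HSP90B1 and HSPB1. BAG6 (-2.02 ± 0.43) and DNAJB1 (-1.58 ± 0.42) were lower. Without 8-cell gradient A 2 members were called and without gradient B 12. The value of HSP90B1 (2.68) was 0.62 without gradient B, that of HSPA4 (2.76) 0.74 without gradient A, and that of HSPA5 (2.64) 1.29 without B. With the gradient as a block these 3 were not called (2.63, 3.17 and 2.93).

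In GV oocytes DNAJA1 was the only member higher in polysome than in monosome pools (0.377%), by 1.77 ± 0.37, with none lower (0.208%). It was not called with the block, nor without gradient A (1.54) or B (2.10), while 14 members had an unadjusted p below 0.05. In the morula CCT8 and DNAJC2 were higher (0.74%) and DNAJB1 and HSPA12A lower (0.941%). The log2 differences were 1.71 for CCT8, 4.40 for DNAJC2 and -1.79 for DNAJB1, and HSPA12A had 0.0484 and 0 CPM in the polysome pools. Without morula gradient A no member was called and without gradient B 9 were. With the block CCT8 (1.72) and DNAJB1 (-1.75) were called and DNAJC2 (5.10) and HSPA12A were not. In the blastocyst no member was called (0.834% higher and 0.639% lower over all genes), while 10 had an unadjusted p below 0.05 and DESeq2 and the likelihood ratio test each called 3.

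**Figure D3:**
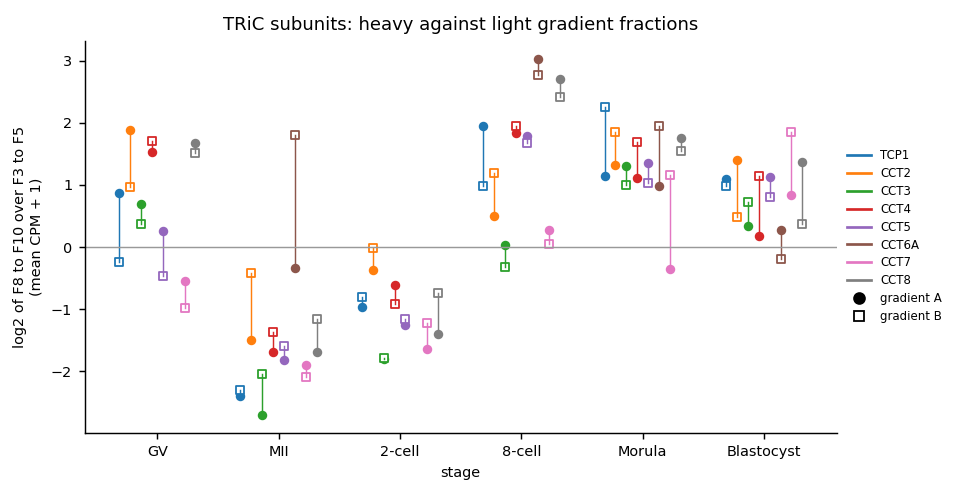
Log2 ratio of the mean CPM + 1 in F8 to F10 over that in F3 to F5 for each TRiC ring subunit by stage, with gradient A as a filled circle and gradient B as an open square. Most points lie below 0 at the MII and 2-cell stages and above 0 from the 8-cell stage on, with medians of -1.76 and -1.48 at MII and 1.81 and 1.43 at the 8-cell stage.

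Prefoldin delivers actin and tubulin chains to TRiC. Its subunits PFDN1 and PFDN5 fell at maturation in the transcriptome (10.4% of all genes) while PFDN1 and PFDN6 rose in polysomes (3.02%). At EGA PFDN2, PFDN5 and PFDN6 rose (26.5%) and PFDN1 fell (23.3%) in the transcriptome. In polysomes 1 of the 5 rose (21.0%) and 2 fell (25.1%) at that step. PFDN1, PFDN2 and PFDN4 rose in polysomes from the 8-cell stage to the morula (18.4%).

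PFDN1 was the only member called in opposite directions in transcriptome and polysomes over the same step. Its transcriptome level went from 489.8, 853 and 583 CPM at GV to 227, 199 and 134 at MII, and its polysome level from 132 and 128 to 289.9 and 617 CPM. In neither kind of library did the 2 stages overlap. The log2 fold changes were -1.78 ± 0.34 (adjusted p = 4.97e-04) and 1.80 ± 0.42 (adjusted p = 0.0121), and their difference was 3.58 ± 0.55 (adjusted p = 9.38e-05). The polysome rise was not called without GV gradient A (1.82), GV gradient B (1.77) or MII gradient B (1.16). PFDN5 fell from 134, 225 and 164 to 75.9, 66.8 and 44.1 CPM in the transcriptome (-1.48 ± 0.38), a call lost without MII transcriptome C (-1.28). Polysome pools held 75.5 and 131 CPM of PFDN5 at GV, against 124 and 331 at MII, and the change was not called. For PFDN6 the polysome pools held 54.3 and 52.9 CPM at GV and 148 and 147 at MII (1.46 ± 0.42, adjusted p = 0.0422), a call that each of the 4 gradients removed when left out (1.44 to 1.48).

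PFDN4 was lowest in polysomes at the 8-cell stage. Its transcriptome means from GV to blastocyst were 85.8, 123, 32.1, 29.0, 63.8 and 73.8 CPM, and its polysome means 9.63, 7.89, 3.50, 0.977, 20.1 and 30.4 CPM. The 8-cell pools stood at 0.164 and 1.79 CPM and the level rose to 33.4 and 6.87 in the morula (4.32 ± 0.79, adjusted p = 2.18e-04). The morula rises of PFDN1 and PFDN2 (1.88 and 1.34) came from morula gradient A: without it they were 0.76 and 0.13, and PFDN2 was not called without 8-cell gradient B either (1.08).

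Among the cytosolic HSP70 genes, the constitutive HSPA8 and the inducible HSPA1A stood on opposite sides in the 2 kinds of library. HSPA8 was lower in polysomes than in the transcriptome at all 6 stages, and HSPA1A higher at all 6. HSPA8 rose at EGA and HSPA4L, an HSP110-type exchange factor, fell there. HSPA2, known for its role in germ cells, fell in the morula.

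HSPA8 stood at 1770.0, 1958 and 1558 CPM in the GV transcriptomes, 940.3, 1126 and 1022 at MII, 1832, 1479 and 1062 at the 2-cell, 4124, 3038 and 2549 at the 8-cell stage, 6642, 5848 and 6453 in the morula and 3332, 3215 and 3806 in the blastocyst. The 8-cell and later libraries lay above all earlier ones and the morula libraries above all others. The rise at EGA was 1.15 ± 0.29 (adjusted p = 0.00181) and fell below the fold threshold without 2-cell transcriptome C (0.97) or 8-cell transcriptome A (0.94). The polysome pools of HSPA8 held 247 and 232 CPM at the 2-cell stage, 669 and 1369 at the 8-cell stage and 1982 and 2674 in the morula, and the 3 pairs did not overlap. The polysome rise at EGA was 2.09 ± 0.36 (adjusted p = 5.98e-05), and the next, 1.19 ± 0.35, was not called without 8-cell gradient A (0.76) or morula gradient B (0.98).

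HSPA1A transcriptome means were 105, 56.0, 49.4, 39.1, 14.5 and 62.0 CPM from GV to blastocyst, against 826, 1183, 1263, 595, 216 and 329 CPM in polysomes. The gene has a near-identical copy in mammals, so the split of reads between copies is uncertain. Between consecutive stages its single call was a transcriptome rise from the morula (11.8, 17.5 and 14.3 CPM) to the blastocyst (52.3, 40.2 and 93.4 CPM), 2.09 ± 0.51 (adjusted p = 0.00382). The polysome pools of the morula, 381 and 50.8 CPM, lay far apart.

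HSPA4L fell from 351, 317 and 204 CPM at the 2-cell to 15.9, 19.0 and 23.0 at the 8-cell stage and 3.27, 2.77 and 1.94 in the morula. The 3 groups of transcriptomes did not overlap. The log2 fold changes were -3.91 ± 0.53 (adjusted p = 2.15e-06) and -2.85 ± 0.53 (adjusted p = 6.76e-04). Its polysome pools held 76.6 and 36.2 CPM at the 2-cell stage, 7.83 and 1.60 at the 8-cell stage (-3.59 ± 0.64) and 0 in both morula gradients, at least 40.9-fold lower than at the 8-cell stage against a floor of 3 counts per pool. HSPA4, its close relative, rose in the transcriptome from 172, 159 and 134 CPM at the 8-cell stage to 415, 460.2 and 387 in the morula (1.44 ± 0.35, adjusted p = 0.00584). HSPA2 polysome pools held 309.7 and 307 CPM at the 8-cell stage and 42.7 and 43.2 in the morula (-2.84 ± 0.40, adjusted p = 1.26e-05). HSPH1, the exchange factor of HSP70, was not called between any 2 consecutive stages, with transcriptome means of 76.8 to 151 CPM.

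Of the 12 members listed for the endoplasmic reticulum, 5 rose at EGA in the transcriptome (26.5% of all genes) and none fell (23.3%). They were HSPA5, DNAJB9, DNAJC3, DNAJC10 and DNAJC25. The same count rose in polysomes (21.0%), where DNAJB14 fell (25.1%). The rest of the list, which was drawn up by hand, was HSPA13, HSP90B1, DNAJB11, DNAJB12, DNAJC1 and DNAJC16. HSPA5 (BiP), its J-domain partners DNAJB9, DNAJC3 and DNAJC10, and HSP90B1 are among the known targets of the unfolded protein response. HSP90B1 and DNAJB11 were not called at EGA in the transcriptome, and the response itself was not tested.

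HSPA5 stood at 159, 141 and 118 CPM in the 2-cell transcriptomes, 1862, 579.8 and 676 at the 8-cell stage and 247, 240.1 and 229 in the morula. All 8-cell libraries lay above every 2-cell and morula library, and library A was over 2-fold above the other two. The log2 fold changes were 2.90 ± 0.44 (adjusted p = 7.89e-06) and -2.12 ± 0.43 (adjusted p = 0.00130), and both stayed called without library A. In polysomes HSPA5 held 14.3 and 44.3 CPM at the 2-cell, 59.1 and 127 at the 8-cell stage, 48.8 and 111 in the morula and 251 and 259.9 in the blastocyst. The polysome rise at EGA (1.66 ± 0.51) was not called without 2-cell gradient A (1.07) or 8-cell gradient B (1.01), and that in the blastocyst (1.68 ± 0.51) was not called without morula gradient A (1.22) or blastocyst gradient A (1.71) or B (1.67).

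DNAJB9, which delivers clients to HSPA5, was at or below 3.35 CPM in every oocyte and 2-cell transcriptome and at 137, 195 and 159 CPM at the 8-cell stage (10.54 ± 1.19, adjusted p = 2.23e-07). Its polysome pools held 0 CPM at the 2-cell stage and 74.1 and 25.3 at the 8-cell stage, at least 566-fold higher against a floor of 3 counts per pool (adjusted p = 3.82e-06). Among GV, MII and 2-cell polysome pools DNAJB9 had counts in MII gradient A only (1.62 CPM), and the log2 changes into and out of MII were 0 without it. DNAJC3, an HSPA5 partner, went from 51.0, 47.1 and 49.6 to 131, 131 and 115 CPM in the transcriptome (1.35 ± 0.45, adjusted p = 0.0148). HSP90B1 had no called change in the transcriptome, where its means were 634, 1069, 629, 455, 226 and 218 CPM from GV to blastocyst. Its polysome rise from the morula to the blastocyst (1.48 ± 0.48) was not called without morula gradient A (0.92) or either blastocyst gradient (1.42 and 1.57).

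All 7 members on a hand-made list of mitochondrial chaperones (HSPA9, HSPD1, HSPE1, DNAJA3, DNAJC11, DNAJC15 and DNAJC19) had their highest mean transcriptome level in the morula or blastocyst. In polysomes 6 of the 7 did, and DNAJA3 was highest at MII. All 5 BAG genes likewise had their highest mean transcriptome level in the blastocyst, though BAG1 and BAG6 had no called step there. Of 9776 genes at 10 CPM or more in the transcriptome, 1297 peaked in the morula and 2445 in the blastocyst. In polysomes 2011 and 1887 of 10557 genes did. From the 8-cell stage to the morula 4 of the 7 rose in the transcriptome (6.56% of all genes) and 6 of the 7 in polysomes (18.4%), with a median polysome log2 fold change of 1.39 over the list and 0.00 over all genes. As a share of transcriptome counts they took 0.0537% at GV, 0.0383% at MII, 0.0543% at the 2-cell stage, 0.0936% at the 8-cell stage, 0.211% in the morula and 0.222% in the blastocyst.

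HSPD1, the wall of the mitochondrial folding chamber, stood at 82.1, 80.1 and 96.5 CPM in GV transcriptomes, 94.3, 126 and 103 at the 2-cell, 289.7, 224 and 201 at the 8-cell stage, 676, 754 and 583 in the morula and 777, 1165 and 1243 in the blastocyst. From the 2-cell stage on, no group overlapped the one before it. The transcriptome log2 fold change was 1.15 ± 0.27 at EGA (adjusted p = 9.94e-04), below the fold threshold without 8-cell transcriptome A (0.98), and 1.49 ± 0.27 from the 8-cell stage to the morula (adjusted p = 4.54e-04). In polysomes HSPD1 held 21.6 and 23.1 CPM at GV, 21.6 and 16.2 at MII, 12 and 11.8 at the 2-cell, 12.4 and 25.6 at the 8-cell stage, 135 and 196 in the morula and 147 and 245 in the blastocyst. The rise to the morula was 3.12 ± 0.35 (adjusted p = 9.15e-07), larger than that of the transcriptome by 1.63 ± 0.42 (adjusted p = 0.0121). That difference was not called without 8-cell gradient A (1.20).

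HSPE1, the lid of the chamber, rose from 118, 145 and 112 to 423, 394 and 389 CPM in the transcriptome (1.68 ± 0.38, adjusted p = 0.00352). Its polysome pools went from 91.6 and 34.1 to 504 and 116 CPM (2.30 ± 0.48), a call that rested on morula gradient A and was lost without it (0.89). HSPA9, the mitochondrial HSP70, fell from 548, 630.1 and 489 CPM in the morula to 106, 104 and 95.2 in the blastocyst transcriptomes (-2.45 ± 0.33, adjusted p = 7.44e-06), and the 2 groups lay far apart. DNAJA3, the mitochondrial J-domain protein, fell at maturation in the transcriptome, from 53.4, 37.1 and 34.5 to 10.3, 9.94 and 10.1 CPM (-2.04 ± 0.40, adjusted p = 5.46e-04). Its polysome pools held 222 and 173 CPM at GV, against 434 and 276 at MII, and the 2 changes differed by 2.89 ± 0.61 (adjusted p = 0.00274).

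The cytosolic HSP90 genes HSP90AA1 and HSP90AB1 were low in polysomes for their transcriptome level up to the 8-cell stage and rose in polysomes in the morula. HSP90AB1 stood at 174 and 163 CPM in GV polysome pools, 81.0 and 171 at MII, 113 and 138 at the 2-cell, 84.7 and 46.8 at the 8-cell stage, 539 and 575 in the morula and 1062 and 1139 in the blastocyst. The 8-cell and morula pools were far apart, with a log2 fold change of 3.08 ± 0.41 (adjusted p = 7.61e-06). Over the same step the transcriptomes held 1021, 486 and 436 CPM at the 8-cell stage, against 654, 901 and 429 in the morula, and overlapped (0.03 ± 0.31, adjusted p = 0.974). The difference between the 2 changes was 3.05 ± 0.51 (adjusted p = 3.90e-04).

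At maturation HSP90AB1 rose in the transcriptome, from 623, 746 and 567 to 1464, 1524 and 1983 CPM (1.36 ± 0.32, adjusted p = 0.00311), while its polysome change was -0.42 ± 0.38 and not called (difference -1.78 ± 0.50, adjusted p = 0.0206). The difference was not called without GV gradient A (-1.73), MII gradient A (-1.36) or transcriptome C of either stage (-1.69 and -1.64). HSP90AB1 fell again in the 2-cell embryo (-1.12 ± 0.32), a call lost without MII transcriptome C (-0.99) or 2-cell transcriptome A (-1.13) or C (-1.03). HSP90AA1 transcriptomes had means of 1036, 1893, 1481, 1689, 2265 and 3455 CPM from GV to blastocyst, and no step was called. Its polysome pools held 170.3 and 276 CPM at the 8-cell stage and 1208 and 685 in the morula and did not overlap (2.09 ± 0.33, adjusted p = 5.01e-05). That change exceeded the transcriptome's by 1.66 ± 0.41 (adjusted p = 0.0102), a difference not called without 8-cell gradient A (1.35) or morula gradient A (1.20). Together the HSP90 genes went from 0.0355% of polysome counts at the 8-cell stage to 0.124% in the morula and 0.178% in the blastocyst.

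HSPB1 (HSP27), an actin-associated small heat shock protein, changed at each of the first 4 steps in the transcriptome. Its transcriptome level was 5.54, 5.23 and 4.26 CPM at GV, 61.4, 72.2 and 63.3 at MII, 10.7, 12 and 13.8 at the 2-cell, 336, 118 and 135 at the 8-cell stage, 458, 509 and 345 in the morula and 783, 537 and 537 in the blastocyst. It rose at maturation (3.71 ± 0.35, adjusted p = 4.01e-08), fell in the 2-cell embryo (-2.43 ± 0.33, adjusted p = 1.94e-05) and rose at EGA (4.02 ± 0.35, adjusted p = 2.38e-09). Polysome pools held 16 and 13.6 CPM at GV, 80.3 and 60.7 at MII, 37.4 and 28.2 at the 2-cell, 226 and 418 at the 8-cell stage, 3437 and 2361 in the morula, and 3479.7 and 4175 in the blastocyst. No 2 consecutive stages overlapped. From the 8-cell stage to the morula the polysome rise was 3.17 ± 0.41 (adjusted p = 4.99e-06) and the transcriptome rise 1.15 ± 0.31. The transcriptome rise fell under the fold threshold without 8-cell transcriptome B (0.89) or C (0.94), and was not called without morula transcriptome B (1.03). The 2 changes differed by 2.02 ± 0.49 (adjusted p = 0.00912), not called without 8-cell gradient A (1.64).

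Markers of trophectoderm and of epiblast were also higher in morula than in 8-cell polysomes. Summed over 7 markers, those of trophectoderm held 890 to 916 CPM in GV polysome pools, 1298 to 1363 at MII and 713 to 993 at the 2-cell stage. The sums were 412 to 497 in 8-cell pools, 2020 to 5023 in the morula and 13304 to 18071 in the blastocyst. In the transcriptome the same markers summed to 94.8 to 126 CPM at the 2-cell and 82.6 to 137 at the 8-cell stage. The 2 epiblast markers summed to 206 to 258 CPM in 8-cell polysome pools and 1594 to 3074 in the morula. The 4 hypoblast markers stood at 235 CPM in both 8-cell pools and 143 to 360 in the morula. The part of these markers, or of the cumulus markers, in the HSPB1 level was not tested. HSPB7 was at 0 in every library before the 8-cell stage and at 8.82 and 4.09 CPM in 8-cell polysome pools, at least 73.5-fold higher than at the 2-cell stage against a floor of 3 counts per pool. HSPB11 is counted among the small heat shock genes by its symbol alone, and is the member that RefSeq does not list under its symbol. It fell in the transcriptome in 3 consecutive steps. The log2 fold changes were -1.67 from MII to the 2-cell stage, -1.55 at EGA and -1.69 in the morula.

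J-domain genes rose and fell at different stages. Of the 27 DNAJC genes tested, 8 rose (26.5% of all genes) and 3 fell (23.3%) at EGA in the transcriptome, and 11 rose (18.4%) and 1 fell (17.7%) in polysomes from the 8-cell stage to the morula. DNAJA1, the main DNAJA partner of HSPA8, fell at EGA, and DNAJA4 and DNAJC9, a histone chaperone, fell with it. DNAJB1, which works with HSP70 in disaggregation, rose and fell over the series, and DNAJB6, which holds back amyloid aggregation, fell in the blastocyst.

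DNAJB1 transcriptome levels were 62.9, 46.0 and 73.0 CPM at GV, 16.9, 22.3 and 10.6 at MII, 47.9, 53.2 and 75.4 at the 2-cell, 67.7, 103 and 71.5 at the 8-cell stage, 21.7, 24.7 and 25.0 in the morula and 17.9, 12.6 and 16.6 in the blastocyst. MII, morula and blastocyst libraries all lay below those of the other 3 stages. It fell at maturation (-1.87 ± 0.28, adjusted p = 3.00e-05), rose in the 2-cell embryo (1.82 ± 0.28, adjusted p = 1.02e-04) and fell in the morula (-1.76 ± 0.28, adjusted p = 1.46e-04). In polysomes it held 59.8 and 75.6 CPM at MII, 282 and 246 at the 2-cell, 341 and 278 at the 8-cell stage and 89.4 and 85.3 in the morula. The rise in the 2-cell embryo (1.96 ± 0.35, adjusted p = 9.54e-04) and the fall in the morula (-1.83 ± 0.34, adjusted p = 3.08e-04) were both called there too.

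DNAJA1 fell at EGA from 1155, 1170.1 and 1372 to 694, 541 and 452 CPM in the transcriptome (-1.13 ± 0.22), though not past 2-fold without 8-cell transcriptome C (-0.99), and from 265 and 263 to 90.1 and 149.5 CPM in polysomes (-1.14 ± 0.27), not called without 8-cell gradient A (-0.82). DNAJC9 fell from 304, 313 and 309 to 51.0, 63.9 and 67.5 CPM (-2.35 ± 0.31, adjusted p = 1.27e-06) and DNAJA4 from 87.8, 91.6 and 113 to 12.3, 7.44 and 14.5 CPM (-3.10 ± 0.71, adjusted p = 9.36e-04) in the transcriptome. In all 3 genes the 8-cell libraries lay below every 2-cell library. DNAJB6 fell from 106, 134 and 141 CPM in the morula to 28.5, 25.7 and 27.2 in the blastocyst transcriptomes (-2.23 ± 0.25, adjusted p = 1.09e-06), while its polysome pools held 231 and 136 CPM in the morula, against 92.8 and 126 in the blastocyst, and were not called.

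DNAJC13, an endosomal J-domain protein, fell in polysomes at maturation from 19.2 and 29.6 to 0.973 and 2.36 CPM (-3.87 ± 0.64, adjusted p = 7.52e-04). Its transcriptomes held 58.2, 69.8 and 56.9 CPM at GV, against 133, 134 and 145 at MII, a change that was not called (1.16 ± 0.46). The 2 changes differed by -5.02 ± 0.78 (adjusted p = 1.14e-04). DNAJC2, which sits on the ribosome and recruits HSP70 to nascent chains, rose in polysomes from 36.0 and 45.6 CPM at the 8-cell stage to 117 and 60.9 in the morula (1.12 ± 0.33), a call lost without 8-cell gradient A (0.96) or morula gradient A (0.59). DNAJA2 was not called at any step in either kind of library, its transcriptome means lying between 99.9 and 225 CPM.

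BAG6, which guards tail-anchored and mislocalized proteins, was higher in polysomes than in the transcriptome at all 6 stages. Its polysome pools held 109 and 130.1 CPM at GV, 386 and 224 at MII, 472 and 402 at the 2-cell, 170.4 and 144 at the 8-cell stage, 182 and 321 in the morula and 229 and 148 in the blastocyst. Its transcriptome means were 11.4, 9.93, 19.3, 18.2, 34.0 and 67.0 CPM from GV to blastocyst, with no called step. The polysome rise at maturation (1.35 ± 0.35) was lost without GV gradient A (1.23) or B (1.48) or MII gradient A (0.89), whereas the fall at EGA (-1.47 ± 0.35, adjusted p = 0.00157) was not lost without any library. BAG6 overlaps APOM in the annotation and the counting of strand is not stated.

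BAG3, which couples HSP70 to autophagy, held 58.5 and 55.2 CPM in GV polysome pools, 49.8 and 46.3 at MII, 42.4 and 72.8 at the 2-cell, and 0 and 7.10 at the 8-cell stage. Both 8-cell pools lay below all earlier ones. The fall was -4.01 ± 1.01 (adjusted p = 0.00261). Its transcriptomes held 8.60, 7.51 and 9.48 CPM at the 2-cell, against 17.3, 9.14 and 10.2 at the 8-cell stage, and were not called. The difference, -4.52 ± 1.23, was not called without 2-cell gradient B (-4.07). BAG3 rose in the blastocyst transcriptome, from 8.12, 11.2 and 7.11 to 41.5, 27.8 and 45.8 CPM (2.12 ± 0.77, adjusted p = 0.0482), a call that any of the 6 left-out libraries removed (1.99 to 2.33). BAG1 had means of 12.4 to 49.0 CPM in the transcriptome with no called step, and its polysome rise in the morula (2.42 ± 0.75) was not called without 8-cell gradient A (1.56) or morula gradient A (1.69).

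**Figure D4:**
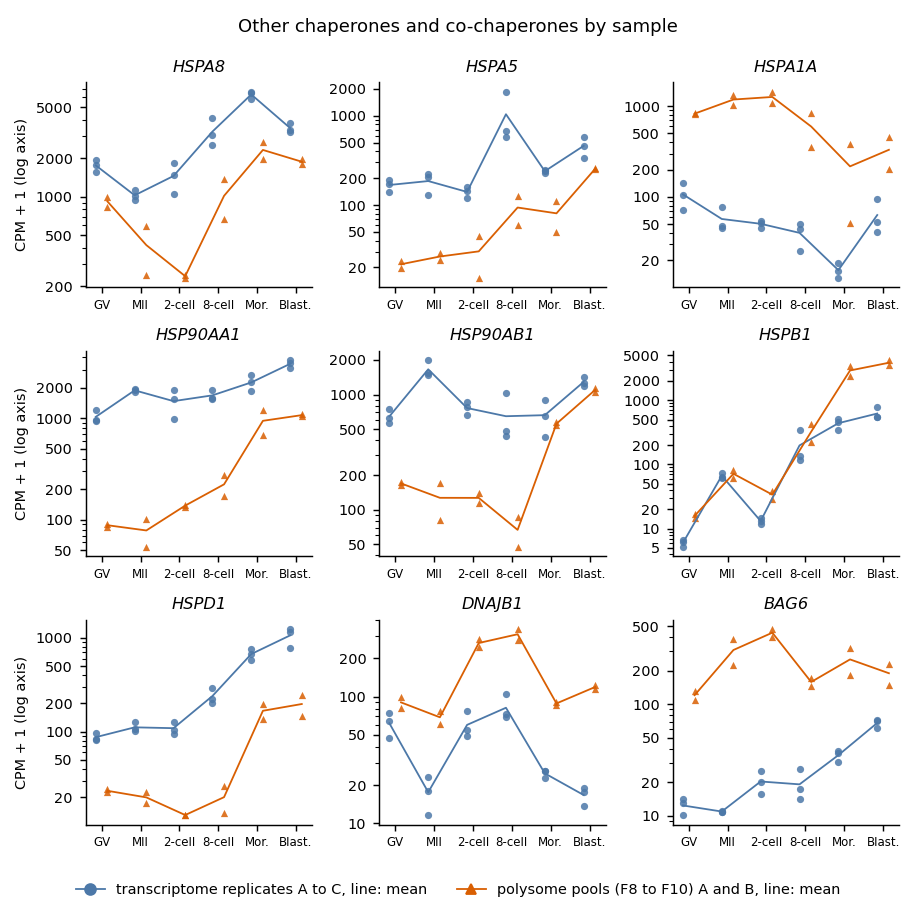
CPM + 1 on a log axis by stage for HSPA8, HSPA5, HSPA1A, HSP90AA1, HSP90AB1, HSPB1, HSPD1, DNAJB1 and BAG6, with each transcriptome and polysome pool as a point and lines through the means. HSPA1A and BAG6 have polysome levels above their transcriptome levels at all 6 stages, while HSPA8, HSP90AA1 and HSPD1 have them below, and the HSP90AB1 polysome level closes on the transcriptome in the morula.

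Set against the transcriptome of the same stage, more members were lower than higher in polysomes at all 6 stages. At GV 15 members were higher (22.1% of all genes) and 29 lower (17.6%), with 39.7% of all genes in either direction, and at MII 18 were higher (30.7%) and 38 lower (26.7%). At the 2-cell stage 17 were higher (29.0%) and 36 lower (21.8%), at the 8-cell stage 16 higher (27.9%) and 43 lower (31.0%), in the morula 14 higher (26.4%) and 35 lower (25.1%), and in the blastocyst 16 higher (19.9%) and 20 lower (19.9%). The median log2 difference over members was -0.90, -1.08, -0.87, -1.13, -0.76 and -0.42 from GV to blastocyst, against 0.00, 0.00, 0.18, -0.26, 0.00 and -0.08 over all genes. With members at 0 set to their bounds the medians were -0.83, -1.08, -0.73, -1.04, -0.62 and -0.39. Another scaling of the libraries moved the median of all genes in this comparison down by 0.10 to 0.25.

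No HSP90 gene and, before the blastocyst, none of the 12 members listed for the endoplasmic reticulum was higher in polysomes. Of the 3 HSP90 genes all were lower from GV to the 8-cell stage, 2 in the morula and 1 in the blastocyst, with medians of -2.18, -3.72, -3.13, -3.30, -1.26 and -0.83. Of the 12 endoplasmic reticulum members 6, 8, 6, 6, 8 and 1 were lower, with medians from -2.04 to -0.88. Among BAG genes 2, 2, 2, 1, 2 and 1 of 5 were higher from GV to blastocyst, and 1 was lower, in the blastocyst. TRiC ring subunits had medians from -1.22 to -0.44, and prefoldin went from -1.83 at GV to 1.10 at MII and -0.85 at the 2-cell stage.

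In all 6 stages 8 members were higher and 11 lower, 9.09% and 12.5% of the 88 tested, against 9.90% and 5.80% of all genes. The higher ones were HSPA1A, HSPA12B, BAG6 and the J-domain genes DNAJA3, DNAJC4, DNAJC5, DNAJC14 and DNAJC30. HSPA12B was close to 0 in the transcriptome. The lower ones were CCT4, CCT8, HSPA8, HSPA4L, HSP90AA1, HSPD1, HSPB11, DNAJA1, DNAJB14, DNAJC2 and DNAJC13. Under RLE scaling these counts were 7 and 14, with DESeq2 7 and 16, with no filter on low counts 8 and 6, and with a replicate block 4 and 4. Another 10 members were called at no stage and 5 (CCT5, CCT7, HSPA12A, HSPA2 and PFDN1) in both directions at different stages.

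For BAG6 the log2 difference was 3.39, 4.94, 4.50, 3.11, 2.89 and 1.49 from GV to blastocyst, and the adjusted p in the blastocyst was 5.18e-04. HSPA1A lay at 2.97, 4.40, 4.67, 3.93, 3.89 and 2.41, and DNAJA3 at 2.25, 5.13, 3.29, 3.11, 3.13 and 1.94. All 3 stood furthest from their transcriptome at MII or the 2-cell stage. DNAJC30 polysome pools held 43.8 and 60.9 CPM at MII against 1.26, 1.01 and 0.833 in the transcriptomes, a difference of 5.65 ± 0.50 (adjusted p = 1.06e-09).

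On the lower side HSP90AA1 lay at -3.57, -4.61, -3.43, -2.92, -1.26 and -1.68, and CCT8 at -1.68, -2.99, -3.06, -2.11, -1.80 and -1.40. HSPD1 lay between -3.65 at the 8-cell stage and -1.95 at GV, and DNAJA1 between -2.69 at MII and -1.05 in the blastocyst. These 4 genes were called with every library left out in turn. HSPA8 lay between -2.61 and -0.87 and was not called at GV without gradient A (-1.07) or B (-0.81) or transcriptome B (-0.85), at MII without gradient A (-0.84), and in the blastocyst without gradient A (-0.95) or B (-0.81) or transcriptome A (-0.90) or C (-0.81). CCT4 in the morula was not called without gradient B (-0.56) or transcriptome C (-0.63), nor in the blastocyst without gradient A (-0.85). DNAJC2 in the morula was not called without gradient B (-0.40) or transcriptome B (-0.66) or C (-0.79).

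DNAJC12, a J-domain partner of aromatic amino acid hydroxylases, had 10.3, 17.6 and 14.1 CPM in the 8-cell transcriptomes and 0 in both 8-cell polysome pools, at least 137-fold lower in polysomes against a floor of 3 counts per pool. HSPA4L was likewise at 0 in both morula polysome pools, at least 23.0-fold lower than in the transcriptome. HSPB1 lay above its transcriptome in the morula (2.73 ± 0.35) and the blastocyst (2.63 ± 0.35). HSP90AB1 had a log2 difference of -3.30 at the 8-cell stage, and in the morula the difference was -0.25 ± 0.35 and not called.

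**Figure D5:**
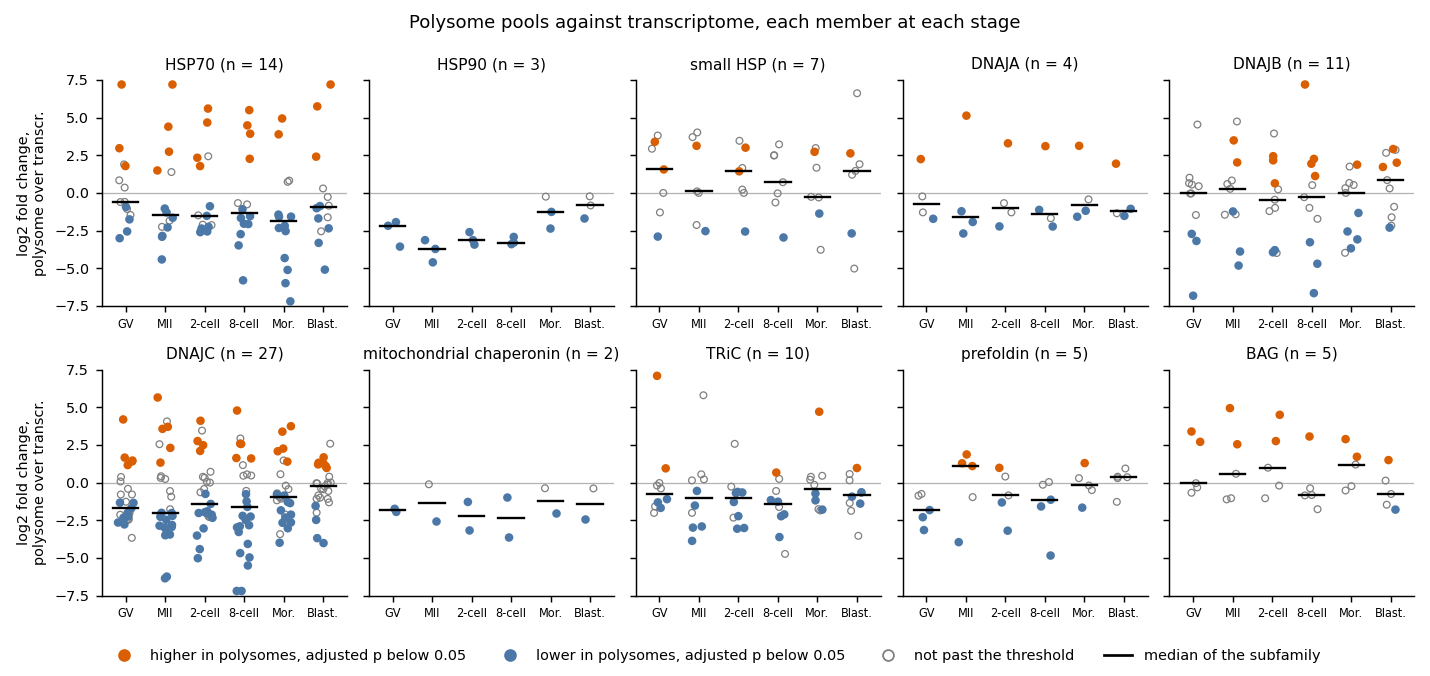
Log2 difference between polysome pool and transcriptome for each tested member by subfamily and stage, 1 point per gene, with called members marked, the subfamily median as a line and points beyond 7.2 drawn at that edge. HSP90 points lie below 0 at every stage and BAG6 is among the highest BAG points, from 3.39 at GV to 1.49 in the blastocyst.

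Whether polysome and transcriptome changes differed was tested in the same model. From GV to MII 12 members differed (10.6% of all genes): PFDN1, DNAJA3, PFDN5, DNAJC5, PFDN6, BAG6 and DNAJB1 moved up in polysomes relative to the transcriptome (7.12%), and DNAJC13, HSP90AB1, DNAJC9, CCT2 and CCT8 down (3.49%). From MII to the 2-cell stage 1 differed (1.83%), PFDN1, by -2.13 ± 0.53, where 0.732% of all genes moved up and 1.1% down. From the 2-cell to the 8-cell stage 5 differed (12.1%), DNAJC25 and DNAJC11 upward (3.44%) and BAG6, BAG3 and DNAJC6 downward (8.68%). From the 8-cell stage to the morula 13 differed (12.4%), 11 of them upward (7.01% of all genes) and HSPA2 and HSPA4L downward (5.34%). From the morula to the blastocyst 10 differed (12.2%), 4 upward (6.02%) and 6 downward (6.22%), among them HSPA9 (1.87 ± 0.49) and DNAJB6 (1.48 ± 0.38) upward. HSPA9 was not called without blastocyst gradient A (1.65), and DNAJB6 not without morula gradient B (1.15) or blastocyst gradient B (1.26).

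These counts moved with single gradients. The 12 of GV to MII were 5 without GV gradient A. The 1 of MII to 2-cell was 3 without MII gradient A and 0 without any of the other 9 libraries. The 5 of the 2-cell to 8-cell step were 26 without 8-cell gradient B, 6 without 8-cell gradient A and 1 to 3 without any of the others. The 10 of the last step were 19 without morula gradient B, and 4 to 6 without either blastocyst gradient, any morula transcriptome or blastocyst transcriptome C. The 13 of the 8-cell to morula step were 7 without 8-cell gradient A, 36 without 8-cell gradient B, 25 without morula gradient B and 6 or 8 without morula transcriptome A or C.

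Other genes of the folding pathways, 49 in 6 lists of heat shock factors, co-chaperones and organelle folding enzymes, were read beside the members. At EGA 17 of the 49 rose (26.5% of all genes) and 11 fell (23.3%) in the transcriptome, and 12 rose (21.0%) and 7 fell (25.1%) in polysomes. The 11 falls and 12 rises are near these shares. Against the transcriptome 13 to 19 of them were higher in polysomes at each stage and 10 to 21 lower, where 19.9% to 30.7% and 17.6% to 31.0% of all genes were. HSP70 co-chaperones and exchange factors had medians of 0.72, 1.88, 1.26, 1.08, 1.23 and 0.86 from GV to blastocyst, and the members of the HSP70 subfamily had medians below 0 at every stage (-0.60, -1.47, -1.51, -1.31, -1.88 and -0.94). HSF1, the main heat shock transcription factor, held a mean of 263 CPM in GV polysomes against 7.11 in the transcriptome (5.20 ± 0.34), and HSF2 was lower in polysomes at GV (-1.83 ± 0.60). HSF2 rose at EGA in the transcriptome (4.94 ± 0.59) and polysomes (5.33 ± 0.74).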

How the data were processed

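RNA from 10 sucrose-gradient fractions of 2 gradients and from 3 whole-pool transcriptomes per stage had been amplified by a Smart-seq protocol, made into Nextera XT libraries and sequenced. The authors deposited expected counts per gene, estimated by Salmon (version not given in the sources used here). The study's methods name the ARS-UCD1.2 assembly and the submitters' processing notes UMD3.1, so no coordinate or sequence is printed. Of all values 11.7% were not whole, and counts were rounded before testing. Whether strand was used in counting is not stated.

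Fractions F8 to F10 and F3 to F5 were summed per gradient. Depth was 16042810 to 42183065 counts in monosome pools, and of polysome pools and transcriptomes as given with the results. edgeR 4.0.16 (R 4.3.3) with TMM scaling, filterByExpr and robust quasi-likelihood tests was fitted to 12 polysome pools and 18 transcriptomes in 12 groups, and separately to 24 polysome and monosome pools, with no block, and p-values were adjusted over all genes. Rises and falls between stages required an adjusted p below 0.05 and more than 2-fold. The fits were tested on simulated data. The study calls the repeated gradients biological replicates, but nothing says that libraries of a stage came from separate animals. The p-values therefore measure a spread between pools that may be technical. Each gene had 1 spread, shared by all 12 groups of a fit. The 8-cell and morula polysome pools agreed less (r of 0.822 and 0.868) and were not judged by their own spread. The floor for genes at 0 was 3 counts per library.

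Fractions of a gradient share a letter by design, and the gradient was tried as a block. Deviations of same-letter polysome and monosome pools correlated at -0.077 to 0.171. Gradients and transcriptomes came from the same batches, but no source pairs them by letter, and those of the same letter correlated at -0.0666 to 0.0097.

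Members may all be named. Values were given for a core list of the main chaperones of each subfamily and for some members with the largest changes. In each comparison up to 3 members per direction were picked by the size of the change. They had passed the threshold, their replicates did not overlap and their mean reached 10 CPM in a group. Not all of those picked are described: HSPA6, DNAJB4, DNAJC7 and DNAJC19, for example, have no values above. The gene set and the lists were drawn up with earlier results of these data known, although the rule for members reads symbols alone. Alternatives were the likelihood ratio test, DESeq2 1.42.0, RLE scaling, no filter, a replicate block, thinned fractions, F7 to F10 as the pool, and each library left out. HSPA1A and its near copy, and 12 members that overlap another coding gene in the RefSeq table (90 of 91 matched by symbol), can share reads.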

Additional observations from a re-analysis of the deposited data

Results flagged for a closer look

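The change between stages differed between polysome pools and transcriptomes for 12 members from GV to MII, 1 from MII to the 2-cell stage, 5 from the 2-cell to the 8-cell stage, 13 from the 8-cell stage to the morula and 10 from the morula to the blastocyst, each by the interaction term of the edgeR quasi-likelihood test. Among the members called at maturation, PFDN1 had the largest upward difference (3.58 ± 0.55 on the log2 scale), with its transcriptome level lower at MII in 3 of 3 libraries and its polysome level higher in 2 of 2.

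The lightest fractions, F1 and F2, enter no comparison above. Members more than 2-fold higher there than in F3 to F10 in both gradients numbered 6 at GV (DNAJB1, DNAJC15, DNAJC4, DNAJC5, HSPB9 and PFDN5), 7 at MII (DNAJB1, DNAJC15, DNAJC5, HSPB1, HSPE1, PFDN2 and PFDN5), 2 at the 2-cell stage (DNAJB1 and PFDN5), 6 at the 8-cell stage (DNAJC1, DNAJC19, DNAJC8, HSP90AA1, HSP90AB1 and HSPA12A), 2 in the morula (HSPA2 and HSPH1) and 4 in the blastocyst (DNAJA1, DNAJC13, HSPA5 and HSPH1). These were 7.79%, 9.09%, 2.70%, 7.41%, 2.56% and 5.13% of members at 1 CPM or more, against 9.62%, 6.61%, 3.46%, 5.92%, 3.85% and 4.10% of all genes.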

How the results depend on the processing

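Of 3682 alternative values of the 312 named fold changes, 3172 were still called and 507 no longer were, 329 of these with a library left out and 119 with the replicate block. The sign turned for CCT6A in polysomes from MII to the 2-cell stage without MII gradient B (3.92, and -5.59 without gradient A), and the polysome changes of DNAJB9 around MII were 0 without MII gradient A and fitted at 7.84 and -7.84 without gradient B. RLE scaling, no filter and thinned fractions left the count of called members in each step and stage comparison within 1.5 times, while the 11 members lower in polysomes at all 6 stages became 6 with no filter.

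Leaving out each library in turn gave, in step order, 10 to 12, 6 to 12, 28 to 34, 9 to 13 and 17 to 20 called members in the transcriptome, 4 to 9, 2 to 8, 27 to 42, 26 to 48 and 3 to 15 in polysomes, and 5 to 12, 0 to 3, 1 to 26, 6 to 36 and 4 to 19 for the difference between the 2 changes. For polysomes against transcriptome the ranges by stage were 34 to 41, 45 to 54, 36 to 45, 53 to 58, 40 to 48 and 26 to 33, and for polysomes against monosomes 0 to 0, 0 to 0, 0 to 0, 2 to 12, 0 to 9 and 0 to 1.

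With the replicate block the transcriptome steps had 9, 5, 20, 3 and 13 calls, polysome steps 1, 0, 18, 17 and 0, and their differences 3, 0, 0, 1 and 0. Polysomes against transcriptome had 37 at MII, 33 at the 2-cell stage, 28 in the morula and 21 in the blastocyst, and polysomes against monosomes 0 at GV and 1 at MII. Letters pair fractions of the same gradient and no other libraries by any stated source.

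DESeq2 gave 20, 2, 13 and 22 members for the first 4 differences between changes, and 9, 10, 3, 19, 18 and 3 for polysomes against monosomes by stage. The likelihood ratio test gave 10 for the difference at the 2-cell to 8-cell step and, against monosomes, 2 at GV, 6 at MII, 1 at the 2-cell stage, 13 in the morula and 3 in the blastocyst. With F7 to F10 as the pool, 5 members differed between changes from MII to the 2-cell stage, and 1 member each was called against monosomes at MII and in the blastocyst. With 2 gradients a stage, calls in polysomes rest on a pair of pools, and the blastocyst transcriptomes are the shallowest.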
